A study of Mus musculus with 15 samples.

Results

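The genes described here are 7 genes of Schwann cells and their myelin, S100b, Mbp, Pmp22, Prx, Sox10, Ncmap and Cnp, out of 55416 genes measured by RNA sequencing in whole tibialis anterior, a muscle at the front of the lower hind leg. They were taken as a named set by matching gene symbols to the gene IDs of the count files, and each matched 1 ID: ENSMUSG00000033208 (S100b), ENSMUSG00000041607 (Mbp), ENSMUSG00000018217 (Pmp22), ENSMUSG00000053198 (Prx), ENSMUSG00000033006 (Sox10), ENSMUSG00000043924 (Ncmap) and ENSMUSG00000006782 (Cnp). The set was chosen with earlier results of these data known. The muscles came from male C57BL/6 mice of the substrain C57BL/6NCrlOri, 6 to 8 weeks old. In 3 groups KrasIKKaL tumour cells had been delivered into the trachea, and these mice then received by intraperitoneal injection anti-PD-L1 at 200 µg per kg 3 times a week (clone 10F.9G2, 3 libraries), anti-CD8a at 200 µg 3 times a week (clone 2.43, 3 libraries) or an isotype IgG of the rat IgG2b class (4 libraries), for which no dose is given. PD-L1 is a ligand that restrains T cells, and CD8a marks cytotoxic T cells. The control group (5 libraries) had no tumour, and no antibody is named for it, so tumour and antibody change together in every comparison with control. The study looked for therapeutic targets in cachexia, the muscle wasting of cancer, and in muscle side effects of immune therapy. Whether every library is a separate mouse is not stated, so p-values measure the spread between these libraries, which may be technical.

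Schwann cells are the glia of peripheral nerve, and in muscle they wrap the motor and sensory axons of the intramuscular nerve branches and cap the nerve terminals. Myelinating Schwann cells follow a programme in which SOX10 and EGR2 together switch on the genes of compact myelin (Mbp, Pmp22) and of the uncompacted channels and their scaffolds (Cnp, Ncmap, Prx). In whole muscle such cells are a small minority beside the myofibres, and a lower level in bulk RNA can mean fewer cells of a type or less RNA per cell, which cannot be told apart.

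Because SOX10 and EGR2 act on this programme, the bases before the transcription start of 4 genes are shown, in the direction of transcription, from 250 to 51 bases before the start (RefSeq, GRCm38.p6). Capitals mark matches on either strand to ACAAAG or ACAATG, which SOX proteins bind, and to GTGGGNG, which EGR proteins bind. The windows are chr10:76253586-76253785 (plus strand) for S100b, chr7:27499074-27499273 (plus strand) for Prx, chr4:135398278-135398477 (minus strand) for the first of 2 listed Ncmap starts, and chr11:100574689-100574888 (plus strand) for Cnp.
S100b: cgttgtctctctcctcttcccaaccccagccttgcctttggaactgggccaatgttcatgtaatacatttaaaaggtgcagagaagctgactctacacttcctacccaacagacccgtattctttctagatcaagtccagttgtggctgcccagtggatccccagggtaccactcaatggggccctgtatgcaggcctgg
Prx: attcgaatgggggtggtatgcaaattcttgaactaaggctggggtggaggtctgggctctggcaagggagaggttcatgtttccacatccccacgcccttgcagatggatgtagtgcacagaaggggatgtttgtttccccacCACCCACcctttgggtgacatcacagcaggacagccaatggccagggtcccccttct
Ncmap: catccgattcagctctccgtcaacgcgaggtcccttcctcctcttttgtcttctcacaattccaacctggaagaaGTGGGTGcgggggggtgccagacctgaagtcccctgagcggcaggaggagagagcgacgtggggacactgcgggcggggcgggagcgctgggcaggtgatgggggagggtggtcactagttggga
Cnp: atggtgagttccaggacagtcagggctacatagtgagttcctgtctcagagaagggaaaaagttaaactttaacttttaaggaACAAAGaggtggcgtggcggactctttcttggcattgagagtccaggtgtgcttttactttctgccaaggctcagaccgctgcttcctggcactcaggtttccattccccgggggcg
Prx held CACCCAC, the EGR motif on the minus strand, 107 to 101 bases before the start. Ncmap held GTGGGTG 175 to 169 bases before its first listed start, and Cnp held ACAAAG 167 to 162 bases before its start. The S100b window, those of 4 listed Pmp22 starts and that of the second listed Ncmap start held none of these letters. Of 32851 mouse promoters in the same table, 16.5% held ACAAAG, 10.7% ACAATG and 28.1% GTGGGNG in the 250 bases before the start, so matches of this kind are common and describe the letters only. Mbp and Sox10 had no start listed there, so their promoters were not searched for these motifs.

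Library totals were 15894822 to 22459370 expected counts. Levels are CPM, counts divided by a TMM-normalised library size, and 3 counts corresponded to 0.129 to 0.189 CPM. All 8 myofibre genes checked were present in every library, with a summed level of 50870 to 110070 CPM. On the first principal component of all tested genes (56.1% of the variance), IgG 2 lay at 38.0 against 77.4 to 92.3 for the other IgG libraries, and anti-PD-L1 2 lay at 60.5 against 4.98 and 22.9 for the other anti-PD-L1 libraries. Results that change without these 2 libraries are given both ways.

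Several of the genes were counted at low levels. S100b had 23, 27 and 19 counts in the anti-PD-L1 libraries, 54, 19 and 25 in the anti-CD8a libraries, 14, 10, 2 and 3 in the IgG libraries and 41, 35, 80, 42 and 100 in the control libraries. IgG 3 and IgG 4 were thus at or below the 3 counts used as a floor. Sox10 had 6 to 16 counts per anti-PD-L1 library, 7 to 30 per anti-CD8a library, 7 to 21 per IgG library and 23 to 53 per control library. Ncmap had 16 to 45 counts per anti-PD-L1 library, 11 to 95 per anti-CD8a library, 10 to 76 per IgG library and 19 to 69 per control library. Mbp, Pmp22, Prx and Cnp were better covered, and all 7 genes passed the filter on low counts.

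Levels between genes were compared per transcript length, in the deposited TPM. In anti-PD-L1 muscle the order began with Pmp22 at 29.4 ± 5.67 TPM and Mbp at 13.1 ± 4.99 TPM and ended with S100b at 0.940 ± 0.149 TPM and Sox10 at 0.233 ± 0.0961 TPM (SD, n = 3). In anti-CD8a muscle it began with Pmp22 at 23.7 ± 11.3 TPM and ended with S100b at 1.28 ± 0.814 TPM and Sox10 at 0.400 ± 0.236 TPM (SD, n = 3). In IgG muscle Pmp22 (17.5 ± 6.32 TPM) and Mbp (11.2 ± 6.29 TPM) led as well, and S100b, at 0.358 ± 0.272 TPM, stood last beside Sox10 at 0.388 ± 0.184 TPM (SD, n = 4). In control muscle Pmp22 at 39.0 ± 16.4 TPM and Mbp at 25.9 ± 16.4 TPM were followed by Cnp at 5.27 ± 1.47, Prx at 3.04 ± 1.46, S100b at 2.26 ± 1.07, Ncmap at 1.50 ± 0.879 and Sox10 at 0.608 ± 0.238 TPM (SD, n = 5). There Pmp22 and Mbp differed by less than their SDs, as did Prx and S100b, and S100b and Ncmap.

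**Figure D1:**
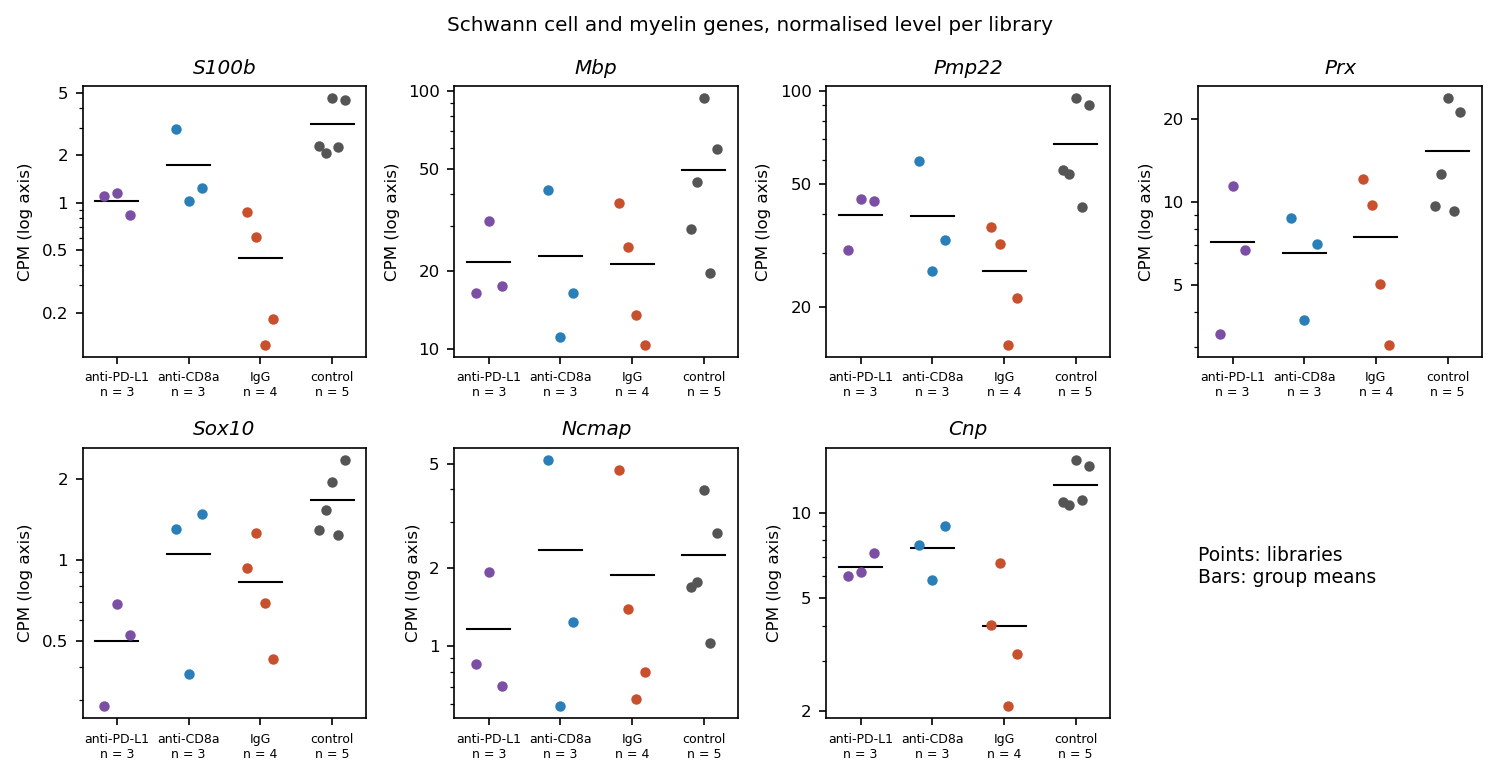
Normalised level (CPM, log axis) of the 7 genes in each library, with points for libraries and bars for group means. The S100b points of IgG muscle (0.126 to 0.869 CPM) lie below all control points (2.06 to 4.60 CPM), whereas the Ncmap points of all 4 groups overlap.

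The first comparison set IgG-treated tumour-bearing muscle against tumour-free control muscle. The nerve glia genes were lower with tumour and IgG: 6 of the 7 fell at an adjusted p under 0.05 (edgeR's quasi-likelihood test with Benjamini-Hochberg adjustment), where 28.4% of the 14372 genes tested fell and 30.2% rose. S100b fell most, by 2.80 on the log2 scale, followed by Cnp, Pmp22, Mbp, Prx and Sox10, and Ncmap had a log2 fold change of -0.25 that was not called. The median of the 7 log2 fold changes was -1.21, beside -0.02 for all tested genes. For S100b, Pmp22 and Cnp the ranges of IgG and control libraries did not overlap, a separation in the lower direction that 23.4% of all genes showed. These 3 kept their call under all 16 alternatives, whereas those of Mbp, Prx and Sox10 did not: without control 3, control 5, IgG 3 or IgG 4, and with the replicate block, only S100b, Pmp22 and Cnp were called. DESeq2 called 5, without Mbp. Without IgG 2 and anti-PD-L1 2 together, 5 were called lower.

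S100b encodes a calcium-binding protein used as a general marker of Schwann cells, and fat cells make it too. Its level was 0.869, 0.602, 0.126 and 0.183 CPM in the IgG libraries, against 2.30, 2.06, 4.60, 2.27 and 4.46 CPM in the control libraries. Every IgG library was below every control library, and the difference was the widest of the 7 genes, with a log2 fold change of -2.80 ± 0.49 (SE; 95% interval -3.84 to -1.76; adjusted p = 0.000171). From the raw sums of 29 counts in IgG and 298 in control, S100b was 7.17-fold lower, with a 95% counting interval of 4.89 to 10.9 that covers counting error only. Of the 5 tested adipocyte genes, edgeR and DESeq2 each called 0, and 2 had an unadjusted p under 0.05. Their median log2 fold change was 1.73 and 1 of the 5 was negative, Fabp4 with -0.29, while Adipoq had 1.84 and Cidec 2.06. Without IgG 3, and also with no filter on low counts, 3 of the 5 were called higher. The list's summed level was 136 to 289 CPM in IgG libraries and 158 to 222 CPM in control libraries, and its part in the S100b level was not tested.

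Among the compact myelin genes, Pmp22 encodes a membrane protein of myelin whose dose is altered in inherited human neuropathy, and growth-arrested fibroblasts express it too. It had 36.3, 32.1, 15.2 and 21.4 CPM in the IgG libraries and 55.7, 53.7, 94.5, 42.0 and 90.1 CPM in the control libraries. The ranges were apart and the log2 fold change was -1.36 ± 0.31 (SE, adjusted p = 0.00137). Mbp, whose protein draws the inner membrane faces of myelin together, had 36.6, 24.7, 13.5 and 10.4 CPM in the IgG libraries, against 29.2, 44.5, 93.7, 19.6 and 59.5 CPM in the control libraries. Here the ranges overlapped, since IgG 1 and IgG 2 exceeded control 4, and the log2 fold change of -1.21 ± 0.48 (SE) had an adjusted p of 0.0391.

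Cnp encodes a cyclic nucleotide phosphodiesterase that keeps channels in myelin open, and Prx encodes periaxin, a scaffold that anchors the outer myelin surface. Cnp had 4.03, 6.68, 2.08 and 3.18 CPM in the IgG libraries and 10.9, 10.7, 15.4, 11.1 and 14.7 CPM in the control libraries. Its spread was small and its ranges were apart, and its log2 fold change of -1.65 ± 0.26 (SE) had the smallest adjusted p of the 7 genes, 7.06e-05. Prx had 12.2, 9.75, 5.04 and 3.05 CPM in the IgG libraries, against 9.65, 12.6, 23.7, 9.25 and 21.1 CPM in the control libraries. IgG 1 and IgG 2 lay within the range of the 3 lower control libraries, and Prx had a log2 fold change of -1.03 ± 0.43 (SE) and an adjusted p of 0.0498, close to the threshold.

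Ncmap, a membrane protein of uncompacted myelin, had 4.72, 1.38, 0.630 and 0.794 CPM in the IgG libraries and 1.68, 1.77, 3.97, 1.03 and 2.72 CPM in the control libraries. IgG 1 alone was above every control library, and the log2 fold change of -0.25 ± 0.64 (SE; 95% interval -1.60 to 1.10; adjusted p = 0.755) leaves room for change either way. Sox10, the transcription factor that Schwann cells need throughout life, had 0.931, 1.26, 0.693 and 0.428 CPM in the IgG libraries, against 1.29, 1.53, 1.96, 1.24 and 2.36 CPM in the control libraries. IgG 2 reached just above control 4, the lowest control library, and the log2 fold change was -1.01 ± 0.40 (SE, adjusted p = 0.0397).

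**Figure D2:**
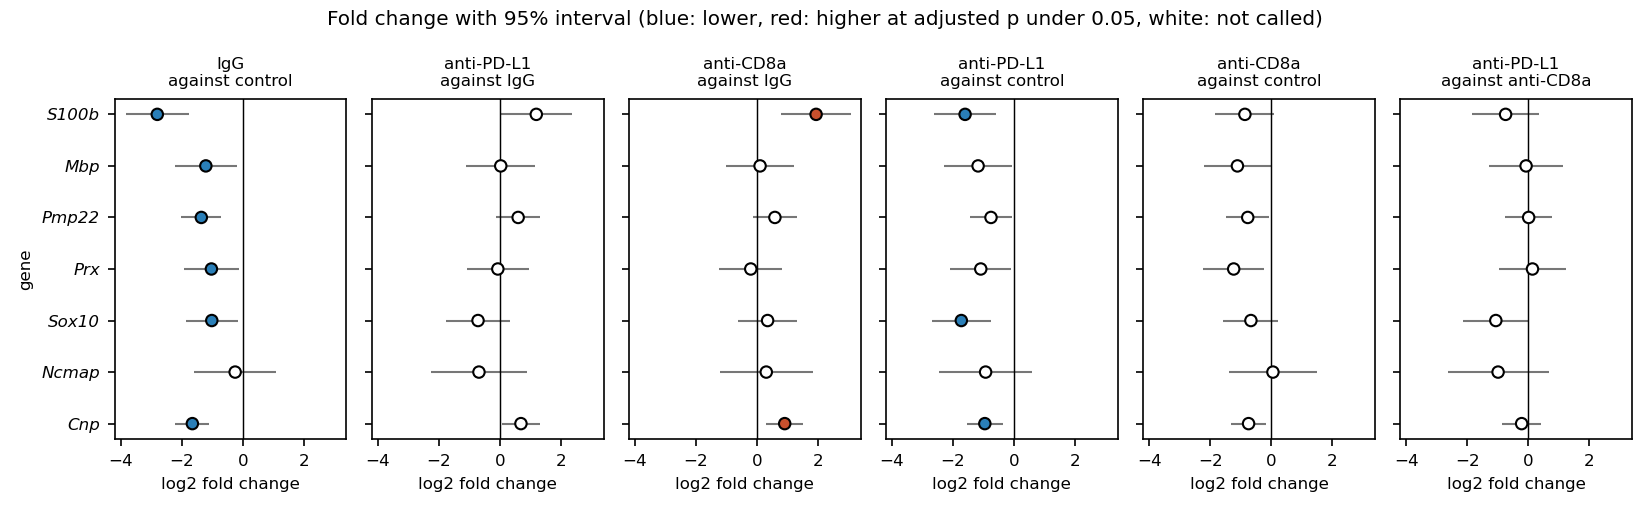
Log2 fold change of the 7 genes in the 6 comparisons (points) with 95% intervals (lines), coloured where the adjusted p was under 0.05. The left panel holds 6 lower calls, and the panels of anti-PD-L1 against IgG, anti-CD8a against control and anti-PD-L1 against anti-CD8a hold none.

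The next comparisons set the antibody groups against IgG, all with tumour. They share the 4 IgG libraries with each other and with the comparison above. S100b and Cnp rose in anti-CD8a muscle, 2 of 7 genes, where 23.2% of all tested genes rose and 24.8% fell. S100b was at 2.94, 1.02 and 1.24 CPM in the anti-CD8a libraries, against 0.869, 0.602, 0.126 and 0.183 CPM in the IgG libraries. The anti-CD8a libraries were all above the IgG libraries, as for 23.1% of all genes, and the estimated log2 change of S100b was 1.94 ± 0.54 (SE, adjusted p = 0.00813). Cnp was at 7.73, 5.80 and 9.01 CPM in the anti-CD8a libraries, and 4.03, 6.68, 2.08 and 3.18 CPM in the IgG libraries. IgG 2 lay within the anti-CD8a range, and the log2 fold change was 0.91 ± 0.29 (SE, adjusted p = 0.0166). Without anti-CD8a 1 S100b had an adjusted p of 0.0696, and Cnp lost its call without anti-CD8a 3, with the replicate block and with only the 2 groups compared, leaving 1 gene called in each case. With upper-quartile scaling Pmp22 was called too, giving 3. The other 5 genes were not called, with log2 fold changes of -0.20 for Prx, 0.10 for Mbp, 0.31 for Ncmap, 0.35 for Sox10 and 0.59 for Pmp22.

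In anti-PD-L1 against IgG muscle edgeR called 0 of the 7 genes, where 3.96% of all tested genes rose and 1.54% fell. Of the 7, 2 had an unadjusted p under 0.05, and DESeq2 called 0. S100b was at 1.10, 1.16 and 0.836 CPM in the anti-PD-L1 libraries, and IgG 1 at 0.869 CPM fell inside that range, with a log2 fold change against IgG of 1.20 ± 0.56 (SE; 95% interval 0.02 to 2.37; adjusted p = 0.18). Cnp was at 6.01, 6.17 and 7.21 CPM in the anti-PD-L1 libraries, with a log2 change of 0.69 ± 0.29 (SE, adjusted p = 0.139). Without IgG 2, and also without both IgG 2 and anti-PD-L1 2, Cnp was called higher, giving a count of 1. Mbp had a log2 fold change of 0.03 with a 95% interval of -1.10 to 1.16, so changes of about 2-fold either way lay inside it.

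Against tumour-free control, with which all 3 tumour-bearing groups share the same 5 control libraries, anti-PD-L1 muscle had 3 of the 7 genes lower, where 13.9% of all tested genes fell and 20.8% rose. Sox10 was at 0.286, 0.686 and 0.528 CPM in the anti-PD-L1 libraries, against 1.29, 1.53, 1.96, 1.24 and 2.36 CPM in the control libraries. All 3 anti-PD-L1 libraries were below all control libraries, and the log2 fold change was -1.73 ± 0.46 (SE, adjusted p = 0.00891). S100b had a log2 change of -1.61 ± 0.48 (SE, adjusted p = 0.0167) and Cnp one of -0.96 ± 0.28 (SE, adjusted p = 0.0141), both with ranges apart, which 16.8% of all genes showed in the lower direction. Mbp, Prx, Pmp22 and Ncmap had log2 fold changes of -1.18, -1.09, -0.76 and -0.93 that were not called (adjusted p of 0.0822 to 0.329). S100b lost its call without anti-PD-L1 3, at an adjusted p of 0.0533, and Cnp lost it without anti-PD-L1 2 and with the replicate block. More were called lower with other settings: 6 with no filter on low counts, 5 with upper-quartile scaling, and 4 without IgG 2 and anti-PD-L1 2 together.

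In anti-CD8a against control muscle 0 of the 7 genes were called by edgeR, and only 0.00696% of all tested genes fell and 0.00696% rose. DESeq2 called 0 too, and 3 of the 7 had an unadjusted p under 0.05. Prx was at 8.77, 3.76 and 7.03 CPM in the anti-CD8a libraries, below all control libraries (9.25 to 23.7 CPM), and Cnp at 5.80 to 9.01 CPM was below all control libraries (10.7 to 15.4 CPM), where 4.38% of all genes were lower with ranges apart. Their log2 fold changes were -1.23 ± 0.48 for Prx and -0.74 ± 0.27 for Cnp (SE), with adjusted p of 0.532 and 0.485. Mbp was at 41.2, 11.1 and 16.5 CPM in the anti-CD8a libraries, a mean of 22.9 ± 16.1 CPM (SD, n = 3), close to its mean in IgG muscle of 21.3 ± 11.9 CPM (SD, n = 4), while its control mean was 49.3 ± 29.1 CPM (SD, n = 5).

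Between the antibodies, anti-PD-L1 against anti-CD8a, edgeR and DESeq2 each called 0 of the 7 genes and 0 had an unadjusted p under 0.05, where 7.64% of all genes fell and 12.1% rose. Sox10 came nearest, at 0.500 ± 0.201 CPM in anti-PD-L1 muscle and 1.06 ± 0.596 CPM in anti-CD8a muscle (SD, n = 3 each), with a log2 fold change of -1.06 and a 95% interval of -2.13 to 0.001. No difference between these groups was detectable at this depth and number of libraries.

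S100b was also set against the other genes of the same library, a ratio that scaling to library size cannot move and that was computed after the values above were seen. Per 100 Mbp counts there were 2.37, 2.43, 0.930 and 1.76 S100b counts in the IgG libraries, against 7.88, 4.64, 4.91, 11.6 and 7.50 in the control libraries. All IgG libraries were below all control libraries, and the same held per 100 counts of Pmp22, Prx, Sox10 and Ncmap but not of Cnp. The two-sided exact permutation p was 0.00794 for each of these 5, the smallest that 4 against 5 libraries can give, and 0.0572 after Benjamini-Hochberg adjustment over the 36 ratio tests. In the anti-PD-L1 libraries the ratio to Mbp was 6.65, 3.70 and 4.77, and in the anti-CD8a libraries 7.14, 9.22 and 7.51. These values all lay above the IgG range (two-sided exact permutation p = 0.0286 for each group, adjusted p = 0.0858). For anti-PD-L1 the ranges were also apart with Prx, Sox10 and Ncmap, but overlapped with Pmp22 and Cnp. For anti-CD8a they were apart with Pmp22, Prx and Ncmap, but overlapped with Sox10 and Cnp. None of the 36 ratio tests passed an adjusted p of 0.05.

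**Figure D3:**
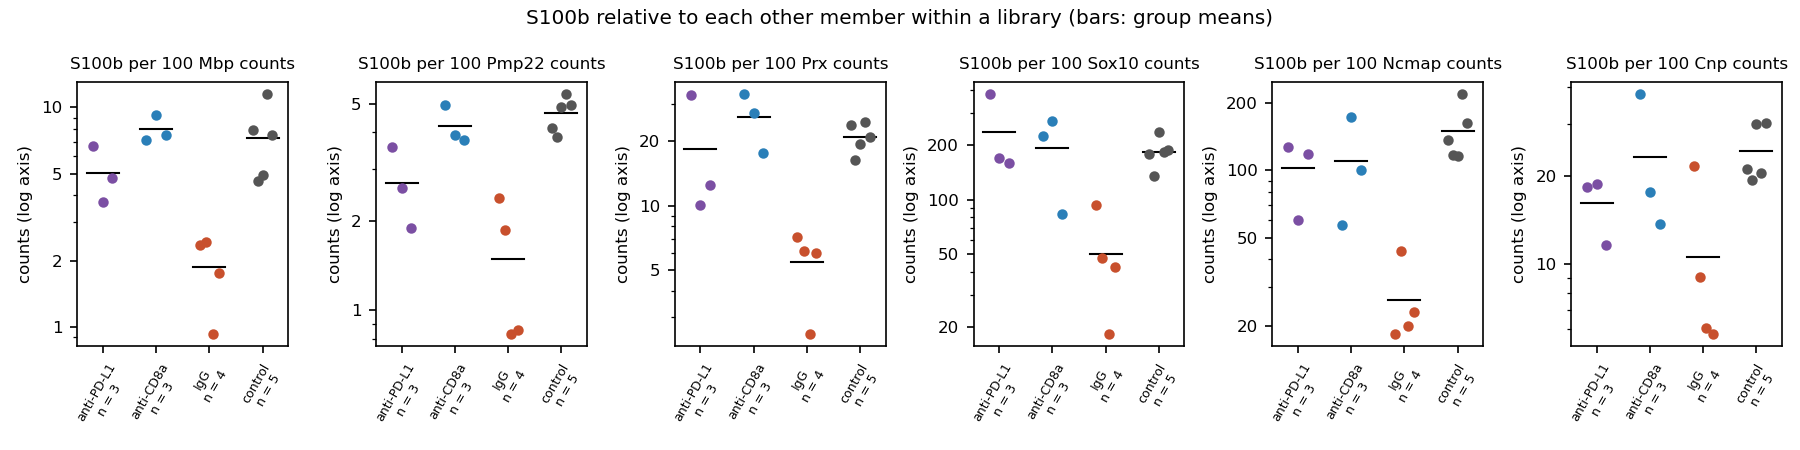
S100b counts per 100 counts of each other gene in the same library (log axes), with points for libraries and bars for group means. The IgG points lie below all control points in every panel but the one for Cnp, where IgG 1 at 21.5 falls inside the control range.

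Within groups the 7 genes moved together from library to library. After the group mean of log2 CPM was subtracted, the 21 pairs of these genes had Pearson correlations of 0.452 to 0.925 over the 15 libraries, with a median of 0.765, as a description, since both genes of a pair come from the same library with its depth and dissection. Mbp and Ncmap were the most alike pair and Ncmap and Cnp the least. The libraries high for these genes were control 3 and control 5, IgG 1 and IgG 2 and anti-CD8a 1, each above its group mean for all 7, while control 1, control 4, IgG 3, IgG 4 and anti-CD8a 2 were below it for all 7. In anti-CD8a 1, Ncmap was 1.63 above its group mean on the log2 scale, and in IgG 1 it was 1.71 above.

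**Figure D4:**
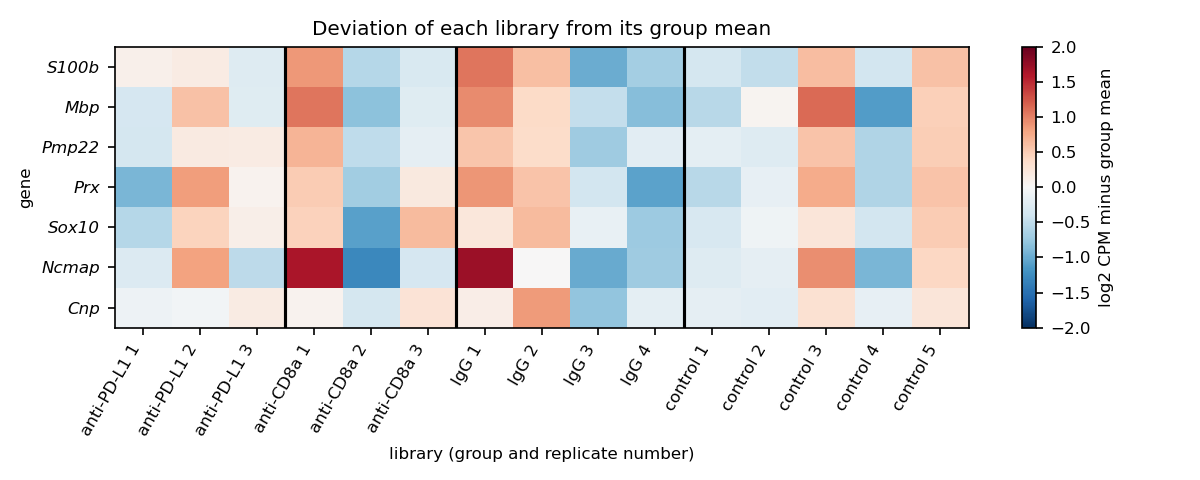
Log2 CPM of each library minus its group mean (colour, red above and blue below) for the 7 genes in rows and the 15 libraries in columns, with black lines between groups. Columns tend to have 1 colour, as in IgG 1, where all 7 genes are above the mean, and anti-CD8a 2, where all 7 are below.

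The genes whose library-to-library pattern was most like each of the 7 were sought among 11466 named genes with a mean level of at least 1 CPM. The nearest gene to Mbp was Drp2 (r = 0.954), the dystrophin-related partner of periaxin, and Mal, Kif1a and Ncmap were also among its nearest 5. Among the nearest 5 to Prx were Mal, Kif1a, Aatk and Pllp. Sox10 was nearest to Cldn19, a tight junction protein of myelinating Schwann cells, with r = 0.908, followed by Gatm, Frmd8, Aatk and Mal. S100b was nearest to Pllp, a myelin membrane protein, with r = 0.898, followed by Pmp22, Ncmap and Zfp644. Pmp22 was nearest to Vat1l (r = 0.937), followed by Drp2, S100b and Mbp. Ncmap was nearest to Zfp644 (r = 0.968), and Mbp, Vat1l and Sun1 were also among its nearest 5. The nearest 5 to Cnp were Dock5, Cmpk2, Ift57, Sntb1 and Plcg2, led by r = 0.859. Of the 20 nearest genes, 10 for Pmp22, 9 for Mbp, 9 for Prx, 7 for Ncmap, 5 for S100b, 4 for Sox10 and 0 for Cnp stood among the 7 genes or in the lists of myelin proteins, Schwann lineage, non-myelinating and repair Schwann cells, perineurium and axon, which together hold 0.27% of the 11466 genes. The list of myelin lipid synthesis, counted apart, added 1 gene each for Cnp and Pmp22 (Ugt8a) and for Prx and Sox10 (Fa2h). Ugt8a stood at rank 11 for Cnp, with r = 0.840.

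Other genes of nerve were read from lists that do not hold the 7 genes, also chosen with earlier results of these data known. In IgG against control, 8 of 13 tested myelin protein genes fell and none rose, with a median log2 fold change of -1.38. Of all tested genes 28.4% fell and 30.2% rose in this comparison. Pmp2, a lipid carrier of myelin, had a log2 fold change of -4.14 ± 0.83 (adjusted p = 0.000523). Mag, an adhesion protein facing the axon, had -2.31 ± 0.57 (adjusted p = 0.00267) and Cldn19 -1.79 ± 0.45 (SE, adjusted p = 0.00277). The mean of Mag in IgG libraries, 0.184 CPM, was at about the floor. Without IgG 4 the list's count of lower genes was 4, and without control 3 or IgG 3, or with the replicate block, it was 5.

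Of 7 tested genes of myelin lipid synthesis, 3 fell and 2 rose in IgG against control, beside 28.4% and 30.2% of all tested genes. Ugt8a, which makes the galactolipids of myelin, had a log2 fold change of -3.24 ± 0.54 and Fa2h, which hydroxylates their fatty acids, one of -1.94 ± 0.48 (SE), with adjusted p of 0.000119 and 0.00263. Fdft1 and Hmgcs1 are enzymes of cholesterol synthesis that most cells use, and they went opposite ways, Fdft1 with a log2 fold change of 1.97 and Hmgcs1 of -0.72. The count of higher genes of this list was 1 without control 1, control 2, IgG 3 or IgG 4. Of 10 tested genes that direct the Schwann lineage, 4 fell and 1 rose. Egr2, the partner of SOX10 in myelination, had -2.05, Lgi4, a secreted ligand needed for myelination, -1.75, the laminin receptor subunit Itga6 -0.97 and the transcription factor Pou3f1 1.02. The call of Pou3f1 was lost under 8 of the alternatives, among them without IgG 1 or IgG 4.

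In IgG against control 28.4% of all tested genes fell and 30.2% rose. Of 5 tested genes of non-myelinating and repair Schwann cells, the matrix protein Matn2 and the adhesion protein L1cam fell, with log2 fold changes of -1.70 and -1.18. Gdnf, a neurotrophic factor of denervated glia, rose with 1.65, and 2 of the list rose without control 5. Gap43, of the same list but under the filter, had 0 counts in all IgG libraries against 30 in control. With a floor of 3 counts over the group it was at least 6.98-fold lower. Of the perineurial genes, Cldn1 fell, with a log2 fold change of -1.11, Slc2a1, a glucose carrier that muscle also uses, rose with 1.57, and Lypd2 had 0 counts in all IgG libraries against 68 in control, at least 15.8-fold lower with a floor of 3 counts over the group. Only 1 perineurial gene was called lower without control 1, control 3, control 5, IgG 1, IgG 3 or IgG 4. Axonal RNA was scarce: 6 of 8 axon genes were under the filter, Chat was at 0 in every library, Stmn2, a microtubule regulator of axons, fell, with a log2 fold change of -1.30, and Uchl1, a ubiquitin hydrolase of neurons, rose by 0.91. Of 8 tested genes that muscle switches on after losing its nerve, 6 rose and none fell, beside 30.2% and 28.4% of all tested genes. Chrng, an acetylcholine receptor subunit of the same list, was under the filter and went the other way. It was at 0.046 ± 0.059 CPM in IgG and 0.183 ± 0.062 CPM in control libraries (SD), with 0 counts in all anti-PD-L1 libraries. Runx1, a transcription factor of denervated fibres, had a log2 change of 3.59 ± 0.34 (SE, adjusted p = 1.07e-06), Chrnb1, an acetylcholine receptor subunit, 0.89 and Musk, which clusters those receptors, 0.88. With upper-quartile normalization or the replicate block 3 of these genes were called, and with either the call of Uchl1 was lost.

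**Figure D5:**
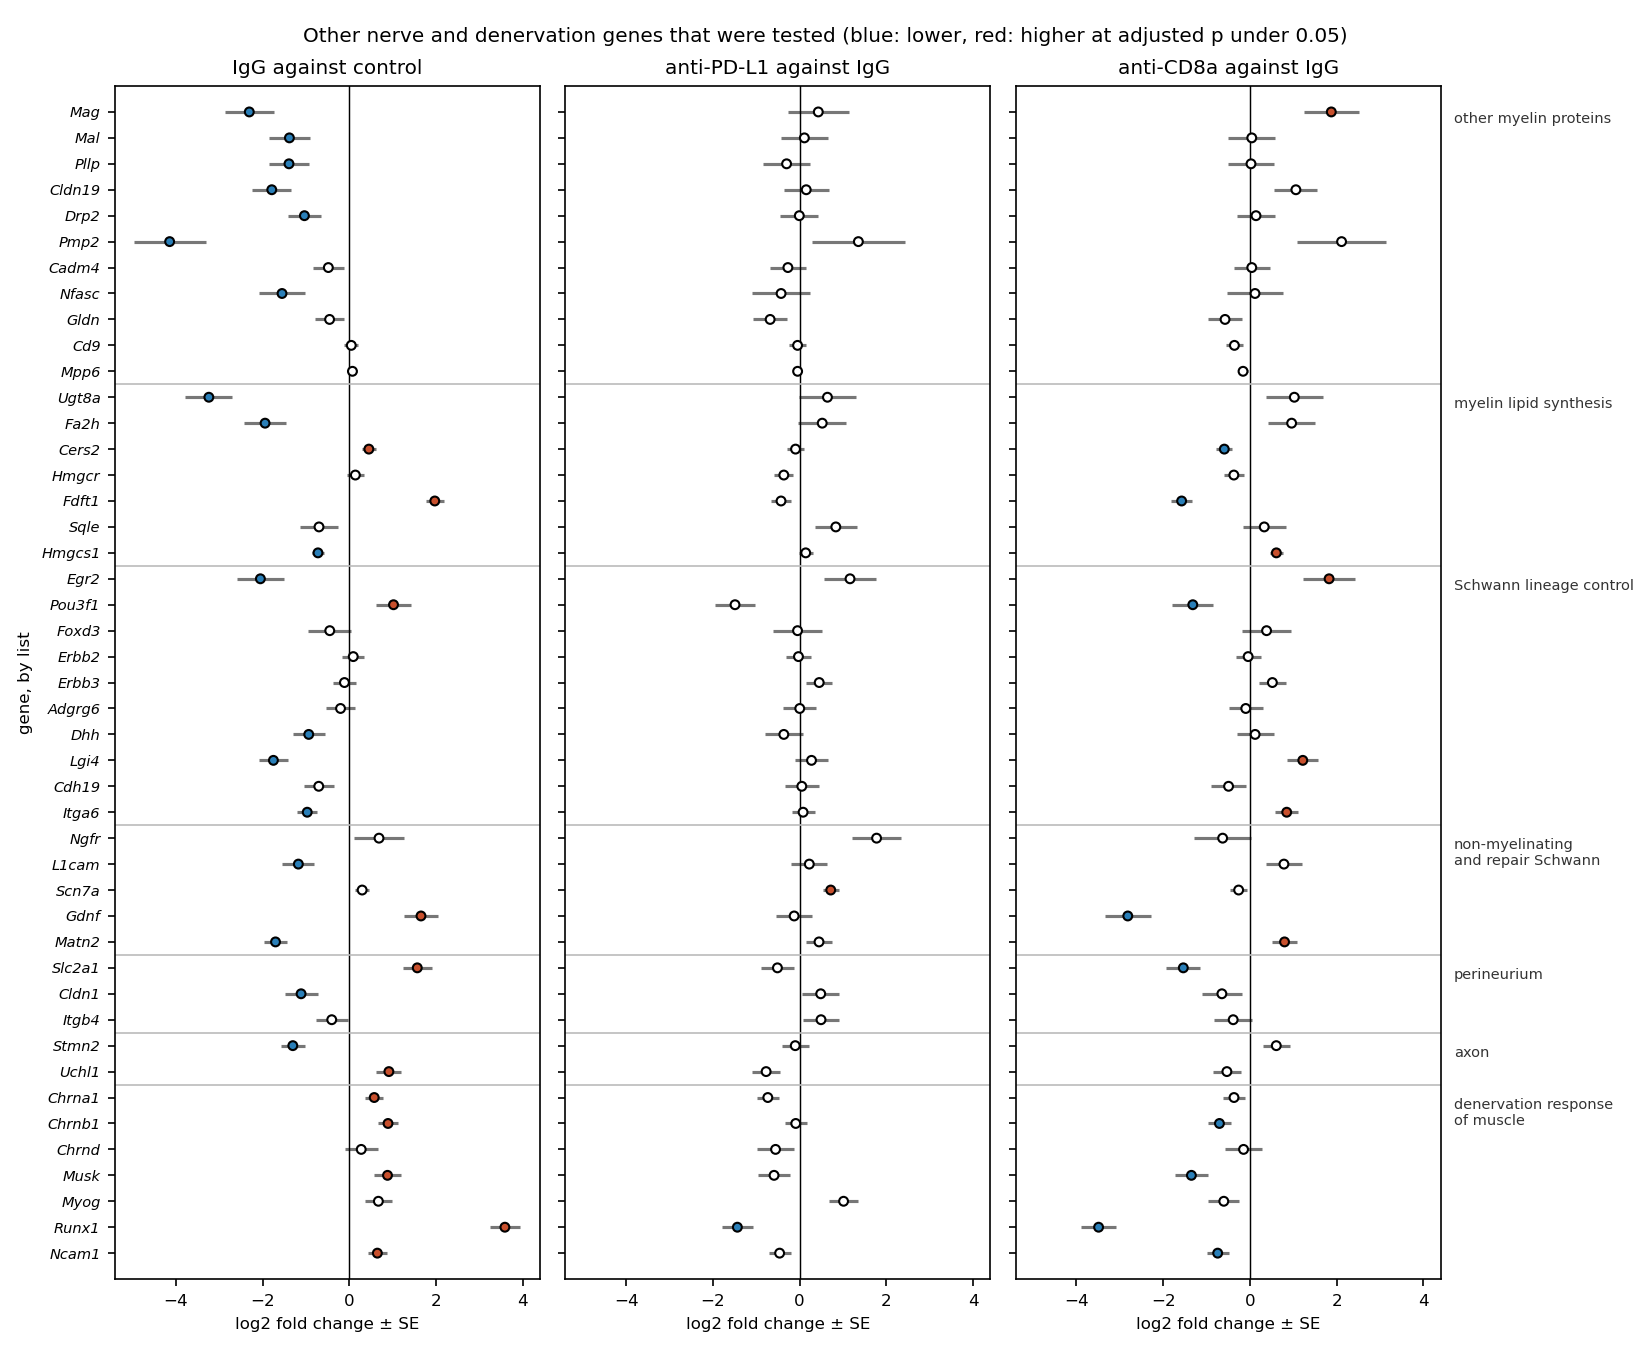
Log2 fold change ± SE of the tested genes of 7 nerve and denervation lists in 3 comparisons, coloured where the adjusted p was under 0.05, with Lypd2 left out because it was at 0 in IgG and a few other list genes not shown. Of the genes drawn, 7 myelin protein genes are blue and 5 denervation genes are red in IgG against control, and 4 denervation genes are blue in anti-CD8a against IgG.

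In anti-PD-L1 against IgG muscle 0 of 13 myelin protein genes were called by edgeR and 0 by DESeq2, and 0 had an unadjusted p under 0.05. The gene of smallest p was Gldn, with a log2 fold change of -0.68 (adjusted p = 0.273). Of all tested genes 3.96% rose and 1.54% fell in this comparison. Scn7a, a sodium channel of non-myelinating Schwann cells, rose by 0.72 and Runx1 fell by 1.44 on the log2 scale, and each was the only called gene of its list. Neither list had that call without IgG 1, IgG 3, IgG 4, anti-PD-L1 1 or anti-PD-L1 3. Without IgG 2 and anti-PD-L1 2 together, 2 genes of non-myelinating and repair Schwann cells rose. Of the denervation genes 2 then fell and 1 rose.

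In anti-CD8a against IgG muscle 1 of 13 myelin protein genes rose, Mag with a log2 fold change of 1.88, and none fell, with a list median of 0.12. Mag was at about the floor of 3 counts in IgG libraries. Of all tested genes 23.2% rose and 24.8% fell in this comparison. Of 7 genes of myelin lipid synthesis 1 rose, Hmgcs1 by 0.61, and 2 fell, Fdft1 with a log2 fold change of -1.57 and Cers2, a ceramide synthase, with -0.59. Without IgG 4, anti-CD8a 1 or anti-CD8a 2, 1 of that list fell. Of 10 lineage genes 3 rose, Egr2 by 1.83, Lgi4 by 1.22 and Itga6 by 0.85, and 1 fell, Pou3f1 with -1.32. Of 5 genes of non-myelinating and repair Schwann cells Matn2 rose by 0.80 and Gdnf fell, with -2.82. Slc2a1 alone of 4 perineurial genes was called, with -1.53. Of the 8 denervation genes 5 fell, led by Runx1 with a log2 change of -3.49 ± 0.41 (SE, adjusted p = 2.28e-05). Without anti-CD8a 3 the denervation count was 3, and of Egr2, Lgi4 and Itga6 1 was called. The myelin protein list had no call without IgG 3, IgG 4 or anti-CD8a 1, and 2 without anti-CD8a 2. The call of Matn2 was lost without IgG 1, IgG 3, IgG 4, anti-CD8a 2 or anti-CD8a 3, and those of Mag and Matn2 with the replicate block and with only the 2 groups compared, and that of Pou3f1 without IgG 4, anti-CD8a 2 or anti-CD8a 3.

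In anti-PD-L1 against control 7 of 13 myelin protein genes fell, where 13.9% of all tested genes fell and 20.8% rose. Pmp2 led with a log2 fold change of -2.79, and its mean of 0.205 CPM in anti-PD-L1 libraries was near the floor of 3 counts. The list's count of lower genes was 1 without anti-PD-L1 1, 3 without anti-PD-L1 3 and 2 with the replicate block. Of the 5 tested genes of non-myelinating and repair Schwann cells 3 rose and 1 fell. Ngfr, the neurotrophin receptor of immature and repair Schwann cells, rose with 2.46 ± 0.55 (SE, adjusted p = 0.00347), Gdnf with 1.53 and Scn7a with 1.01. Matn2 fell, with a log2 fold change of -1.25 (adjusted p = 0.00298), and L1cam had -0.95, not called. Gap43, under the filter, was at 0.045 ± 0.044 CPM in anti-PD-L1 and 0.320 ± 0.174 CPM in control libraries (SD). Without anti-PD-L1 3 the count of lower genes of this list was 2, and with DESeq2 it was 3. In anti-CD8a against control 0 of 13 were called by edgeR and 0 by DESeq2, 7 had an unadjusted p under 0.05, and all 13 had negative log2 fold changes.

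Other cell types moved in the same comparisons. Of all tested genes, 28.4% fell and 30.2% rose in IgG against control, and 3.96% rose in anti-PD-L1 and 23.2% in anti-CD8a against IgG. Of 8 fibroblast genes 7 fell in IgG against control, with summed levels of 505 to 716 CPM in IgG libraries and 1035 to 1429 CPM in control libraries, and 6 of the 8 rose in each antibody group against IgG, with sums of 1060 to 1409 CPM in anti-PD-L1 and 798 to 954 CPM in anti-CD8a libraries. In IgG against control collagen genes led, as Col3a1 with a log2 fold change of -5.03. In anti-PD-L1 against IgG Pi16 led with 3.26, and Col1a1 and Col3a1 were not called. Of 6 leukocyte genes 4 fell in IgG against control, with sums of 14.6 to 20.9 CPM in IgG and 25.4 to 38.3 CPM in control libraries, and all 6 rose in anti-PD-L1 against IgG, with 53.0 to 92.5 CPM in anti-PD-L1 libraries. Without anti-PD-L1 3 only 2 fibroblast genes rose in anti-PD-L1 against IgG, and 0 did in a fit of only those 2 groups, and without anti-PD-L1 1 only 3 leukocyte genes did. In IgG against control 1 to 2 leukocyte genes fell without control 1, control 4, control 5, IgG 1, IgG 3 or IgG 4. Without IgG 2 and anti-PD-L1 2 together, 2 fell. None of the fibroblast and leukocyte genes was at 0 in any library. Of 8 endothelial genes 3 fell and 1 rose in IgG against control, and 0 to 1 fell without control 2, control 5 or IgG 1. The part of these other cell types in the levels of the 7 genes was not tested.

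The deposited transcript length of Mbp, an average over its 16 transcripts weighted by their abundance, also differed and was compared after its values were seen. It was 2205 ± 131 bases in IgG libraries (SD, n = 4, range 2062 to 2335) and 1970 ± 69.5 bases in control libraries (SD, n = 5, range 1873 to 2046), with ranges apart and a two-sided exact permutation p of 0.00794. Adjusted over 36 such tests this p was 0.286, so the difference did not pass. In anti-PD-L1 libraries it was 2149 ± 32.8 bases and in anti-CD8a libraries 2155 ± 132 bases (SD, n = 3 each). S100b has 1 transcript in these files, and its length does not vary.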

How the data were processed

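Total RNA of 15 tibialis anterior samples was sequenced from libraries of the MGIEasy RNA Directional kit, per the labels. The submitters' processing notes name Trim Galore, STAR 2.7.9a and RSEM 1.3.3, and the build, annotation and use of strand are not given in the sources used here. Per the file headers, the authors deposited RSEM expected counts, TPM values and weighted transcript lengths for 55416 genes, of which 52083 carry a symbol. Between 19.8% and 22.8% of the non-zero expected counts of a deposited library were not whole, and they were rounded. The 4 groups, taken from the labels, entered 1 model in edgeR 4.0.16 under R 4.3.3, using TMM scaling, filterByExpr by group (14372 genes left) and the quasi-likelihood test (residual df 11), with Benjamini-Hochberg adjustment over all tested genes within each of the 6 comparisons. The threshold was an adjusted p of 0.05. SEs are the absolute log2 fold change over the square root of F. Log2 CPM used a prior count of 2. Counting floors (3 counts) and 95% intervals of count ratios cover counting error only. The model was tested on simulated data.

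The members and lists were chosen with earlier results of these data known, and the S100b ratios and transcript lengths were compared after their values were seen. Named genes were the 7 members and, per list, up to 4 called genes of largest absolute log2 fold change, or the gene of smallest p where none was called. A few genes that these rules name are not reported here singly, while counts are over whole lists. For likeness, genes of a mean of at least 1 CPM whose symbols are not Gm or Rik names were ranked by Pearson correlation of log2 CPM deviations from the group mean, with 5 named and 20 counted. Alternatives were DESeq2 1.42.0, DESeq2 size factors, upper-quartile scaling, no filter, a fit of only the 2 groups compared, a replicate block, and leaving out libraries. No batch is given in the labels.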

Additional observations from a re-analysis of the deposited data

Results flagged for a closer look

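Of 68 groups of 4 or 5 values that were looked at for a library far from the others, 1 was marked, and chance marks about 1 in 20. The weighted transcript length of Sox10 was 1862 bases in IgG 1, against 2713 to 2780 bases in the other IgG libraries, a gap of 0.927 of the group's whole range (critical value 0.829). Sox10 had 15 counts in IgG 1.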

How the results depend on the processing

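Of 602 fold changes of single members recomputed under an alternative, 517 kept their direction and side of the threshold, 27 lost a call, 12 gained one and 46 turned their sign. The sign turned for 12 pairs of a gene and a comparison, none of them called.

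In IgG against control, the count of lower members was 3 with the replicate block and 3 to 6 when libraries were left out. The log2 fold change of Ncmap ranged from -1.26 to 0.050 over those left-out libraries. In anti-PD-L1 against IgG the count of higher members was 0 to 1. There Mbp had -0.012 with DESeq2 size factors, -0.011 with DESeq2, -0.17 with the replicate block and -0.33 to 0.44 without libraries. Prx had 0.029 with upper-quartile scaling and -0.58 to 0.28 without libraries, and Ncmap -1.39 to 0.33. In anti-CD8a against IgG, the count of higher members was 1 with the replicate block, 1 with only the 2 groups compared, 3 with upper-quartile scaling and 1 to 2 without libraries. Mbp had -0.20 with the replicate block and -0.62 to 0.52 without libraries. Prx had 0.031 with upper-quartile scaling and -0.47 to 0.15 without libraries, and Ncmap -1.02 to 1.32. In anti-PD-L1 against control, 5 members were lower with upper-quartile scaling and 6 with no filter on low counts. In anti-CD8a against control, Ncmap had -0.50 with the replicate block and -1.28 to 0.52 without libraries. In anti-PD-L1 against anti-CD8a, Pmp22 had -0.033 with DESeq2 size factors, -0.029 with DESeq2, -0.11 with upper-quartile scaling, -0.043 with only the 2 groups compared and -0.22 to 0.42 without libraries. Prx had -0.0018 with upper-quartile scaling and -0.37 to 0.48 without libraries. Mbp had 0.028 with the replicate block and -0.43 to 0.65 without libraries, and Ncmap -1.57 to 0.34. The cause of these changes was not tested.

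Over 18 same-numbered pairs of replicates 1 to 3 the correlation of deviations from the group means was -0.345 to 0.18, with 3 pairs over 0.1. Differently numbered pairs were not compared, so these values cannot settle whether the replicate numbers pair the libraries. With 3 to 5 libraries a group and as few as 2 counts of S100b, small differences between groups were not detectable.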
